A study of Mus musculus with 22 samples.

Results

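Expression of the collagen genes was described in the distal colon of C57BL/6 and Winnie mice. The genes were chosen by symbol only, as every gene of the deposited count table whose name has the form Col, a number, a and a number, which gave 44 of the 46078 genes in the table. Winnie mice carry a Muc2 mutation and develop colitis without any treatment, and the study describes its C57BL/6 controls as littermates. The libraries fall into 3 groups: 8 from C57BL/6 mice of 14 weeks (4 males and 4 females), 7 from Winnie mice of 14 weeks (3 males and 4 females) and 7 from mice labelled Winnie-Prolapse of 18 weeks (4 males and 3 females). Every library was made from polyA RNA of a piece of distal colon and not of sorted cells, so that fewer cells of a type and less RNA per cell cannot be told apart. Winnie-Prolapse mice were 4 weeks older than both other groups, so age and prolapse cannot be told apart.

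Collagens are secreted or membrane-bound proteins in which chains wind into a triple helix, and each gene encodes a single kind of chain. Fibrillar collagens such as types I, III and V form the banded fibrils that give the gut wall its tensile strength. Type IV collagens form the sheet of the basement membrane under epithelium and around muscle, vessels and glia, and type VI collagens form beaded filaments. FACIT collagens (fibril-associated collagens with interrupted triple helices) sit on the surface of fibrils. Type VII anchors stratified epithelium to the tissue below it, type XVII is a transmembrane collagen of hemidesmosomes, and the multiplexins, types XV and XVIII, lie in basement membrane zones. In chronic colitis, deposition of fibrillar collagen by fibroblasts is the basis of fibrosis, which is why these genes are often followed in this tissue.

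Several collagen genes lie in pairs that face each other on the chromosome. Col4a5 (chrX:141475385-141689234, plus strand) and Col4a6 (chrX:141165403-141474076, minus strand) lie head to head with 1308 bases between them on GRCm38. Col4a1 and Col4a2 on chromosome 8 overlap head to head by 22 bases, and Col4a3 and Col4a4 on chromosome 1 start 71 bases apart. Col3a1 (chr1:45311538-45349706, plus strand) and Col5a2 (chr1:45374321-45503282, minus strand) lie tail to tail with 24614 bases between them.

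The bases just before 5 of the genes are shown because these genes fell in Winnie-Prolapse mice in pairs or groups of 1 class: the facing type IV pair Col4a5 and Col4a6, and the FACIT genes Col9a2, Col16a1 and Col20a1. Sequences are from RefSeq (GRCm38.p6), on the strand of the gene, 5′ to 3′, and cover the bases of the 250 before the RefSeq start that lie ahead of the annotated gene: chrX:141475169-141475384 (plus strand), chrX:141474077-141474326 (minus strand), chr4:121039316-121039384 (plus strand), chr4:130047590-130047839 (plus strand) and chr2:180986285-180986534 (plus strand). Capitals mark matches to the motifs searched on both strands. The motif CCAAT is the binding sequence of NF-Y. The motif GGGCGG, bound by the Sp family, reads CCGCCC where it lies on the other strand. The third motif was the TATA box, searched as TATAAA.
Col4a5: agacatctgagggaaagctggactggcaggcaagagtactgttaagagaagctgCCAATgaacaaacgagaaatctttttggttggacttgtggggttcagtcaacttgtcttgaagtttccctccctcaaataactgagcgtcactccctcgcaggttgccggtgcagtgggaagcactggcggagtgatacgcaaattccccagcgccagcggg
Col4a6: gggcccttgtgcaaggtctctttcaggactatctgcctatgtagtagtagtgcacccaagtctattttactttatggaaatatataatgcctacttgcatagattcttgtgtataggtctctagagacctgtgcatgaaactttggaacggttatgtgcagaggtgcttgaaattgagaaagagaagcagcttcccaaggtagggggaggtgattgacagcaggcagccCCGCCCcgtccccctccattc
Col9a2: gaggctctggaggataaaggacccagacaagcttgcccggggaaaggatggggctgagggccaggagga
Col16a1: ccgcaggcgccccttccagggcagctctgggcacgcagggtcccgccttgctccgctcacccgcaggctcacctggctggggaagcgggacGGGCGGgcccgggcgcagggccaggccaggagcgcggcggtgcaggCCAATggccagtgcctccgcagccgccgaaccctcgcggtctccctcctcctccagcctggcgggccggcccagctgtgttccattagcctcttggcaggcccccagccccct
Col20a1: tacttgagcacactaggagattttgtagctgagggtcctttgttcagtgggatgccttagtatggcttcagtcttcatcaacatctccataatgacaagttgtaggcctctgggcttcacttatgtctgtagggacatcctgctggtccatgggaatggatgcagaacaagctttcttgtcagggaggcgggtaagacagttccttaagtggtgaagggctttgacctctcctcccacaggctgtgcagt
CCAAT was found before Col4a5 and Col16a1, and the Sp motif before Col4a6 (on the other strand) and Col16a1. The stretches before Col9a2 and Col20a1 held none of the 3 motifs. Among 32851 mouse promoters of the same table, 33.8% held CCAAT, 32.7% the Sp motif and 12.4% the TATA motif, and of 38 promoters of 35 collagen genes 13, 22 and 5 did.

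Library totals ranged from 24817527 to 36344372 counts. Some libraries stood apart in genes of other tissues, summed here over marker lists as CPM, counts scaled to the library total so that 1 CPM stands for 24.8 to 36.3 counts. Squamous epithelium genes (keratins and others of stratified skin-like epithelium) summed to between 2.12 and 3.05 in C57BL/6 libraries, but to 2118, 1606, 277.5, 453.3 and 3419 in Winnie-Prolapse replicates 2, 4, 5, 6 and 7, against 4.82 and 2.21 in replicates 1 and 3. Among Winnie libraries only replicate 2 was high, at 52.5. Skeletal muscle genes were high in Winnie-Prolapse replicates 2, 4 and 5 (2451, 874.1 and 310) and in Winnie replicate 3 (121.6, against 6.13 to 17.4 in the other Winnie libraries and at most 50.7 in C57BL/6), and milk protein genes took 18.02% of all counts in replicate 6. Genes of the colonocyte list summed to 9907 ± 1362, 8939 ± 1954 and 6132 ± 1433 CPM in C57BL/6, Winnie and Winnie-Prolapse mice. The members did not move together. Epcam was at 1489 to 1747 CPM in C57BL/6 and 1216 to 1830 in Winnie-Prolapse mice. Aqp8 was at 306.9 to 703.1 CPM in C57BL/6 mice but 3.66 to 49.9 in Winnie-Prolapse replicates 2, 4, 5, 6 and 7. Of the 8 genes, 3 fell and 1 rose in Winnie-Prolapse against C57BL/6 mice at adjusted p under 0.05 by edgeR, where 26% of all genes fell and 26.5% rose. The smooth muscle list went from 9807 ± 2050 (SD, n = 8) in C57BL/6 to 5138 ± 2413 in Winnie (n = 7) and 2626 ± 888.1 in Winnie-Prolapse mice (n = 7).

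Levels of different genes were compared as CPM per kilobase of exon. Fibrillar, type IV and type VI chains were the most abundant collagens of the colon. Averaged over all 22 libraries, Col3a1 stood at 34.6 CPM per kb, Col1a1 at 27.6, Col6a1 at 21.7, Col4a1 at 17.6, Col1a2 at 14.7 and Col4a2 at 12.1. Mean levels reached at least 10 CPM in 16 of the 44 genes, lay between 1 and 10 CPM in 16 and were below 1 CPM in 12. Fibrillar genes held 54.2% ± 3.0 of all collagen counts in C57BL/6 mice, beaded filament genes 18.0% ± 1.1, basement membrane genes 16.2% ± 1.6 and FACIT genes 6.57% ± 0.86 (SD, n = 8). The 44 genes summed to 1250 ± 131.3 CPM in C57BL/6 mice, to 1217 ± 534.9 CPM in Winnie mice and to 1843 ± 823 CPM where there was prolapse, and the spread over both diseased groups was several times that of the controls.

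**Figure D1:**
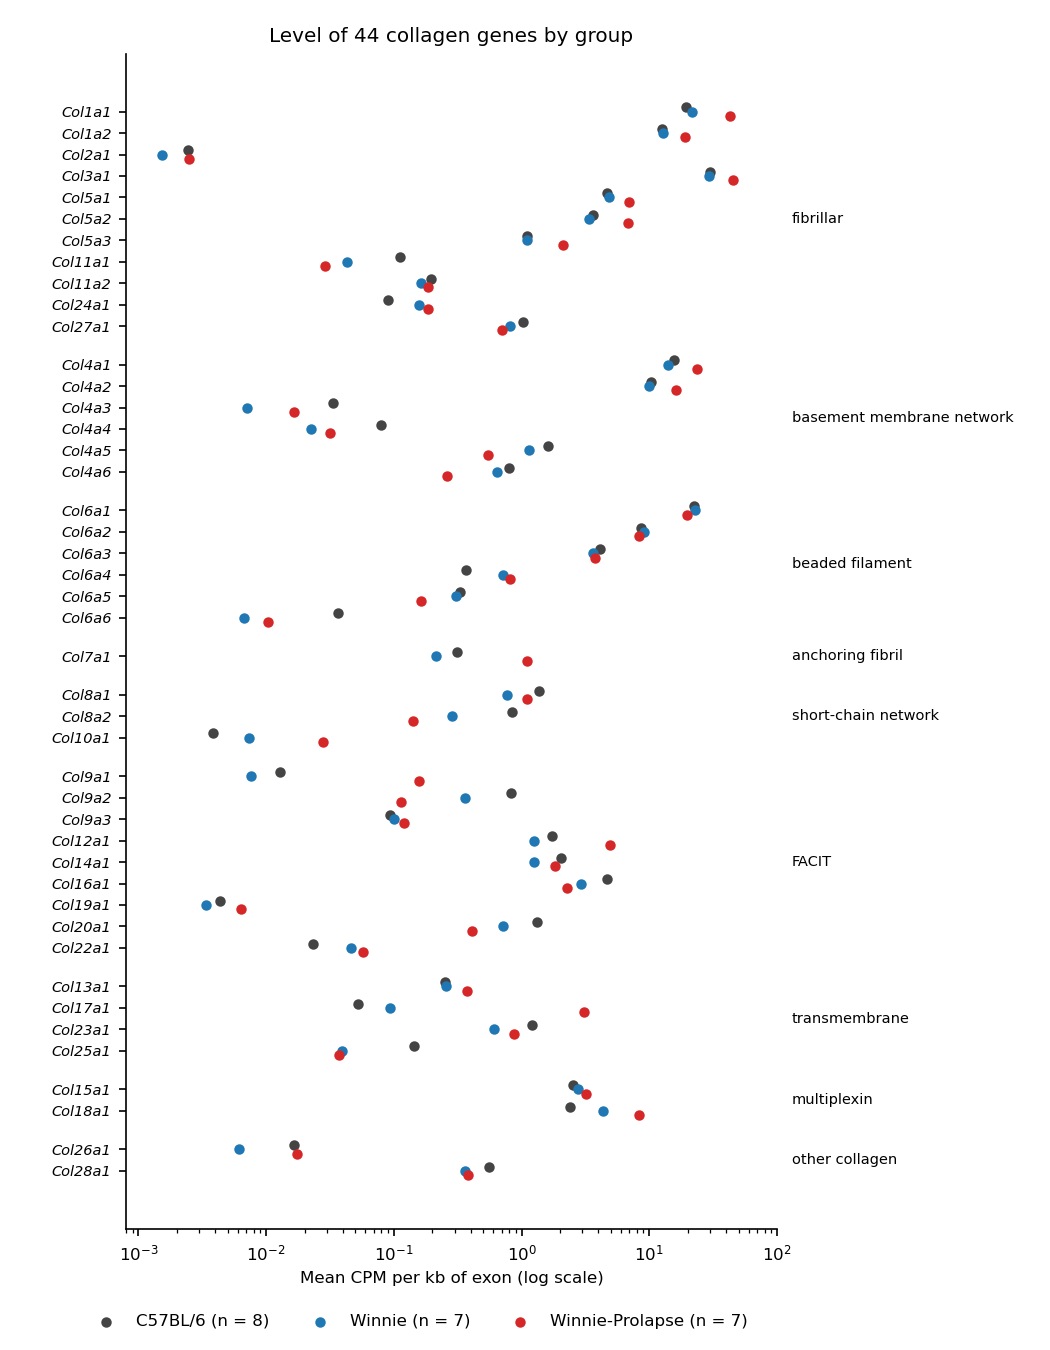
Mean CPM per kb of exon (log axis) of each of the 44 collagen genes, by class, in C57BL/6 (dark grey), Winnie (blue) and Winnie-Prolapse (red) mice. Col3a1, Col1a1 and Col6a1 are the most abundant over all libraries, and Col17a1 shows the widest gap between groups.

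Counts of 37 genes were high enough for a test in at least 1 comparison between groups with all libraries. The other 7, Col2a1, Col4a3, Col6a6, Col9a1, Col10a1, Col19a1 and Col26a1, were not tested in these comparisons. Apart from Col9a1 in 1 library, at 5.48 CPM, the highest value of any of them was 0.762 CPM (Col6a6). Col6a6 was tested in the fit for sex. Among the comparisons between groups with all libraries, Col22a1 was tested only between Winnie-Prolapse and Winnie mice. Col17a1 was tested only in those with Winnie-Prolapse mice, and Col4a4 only in those against C57BL/6 mice. Col22a1, Col17a1 and Col4a4 were also tested in the fit for sex.

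The first comparison asked which collagen genes differ in Winnie-Prolapse mice from C57BL/6 mice. Col17a1 and Col18a1 rose, and Col4a5, Col4a6, Col8a2, Col9a2, Col11a1, Col16a1 and Col20a1 fell, at the limits of the study (adjusted p under 0.001 and at least 1.5-fold, edgeR quasi-likelihood test with Benjamini-Hochberg adjustment). These 9 are 2 higher and 7 lower of 36 tested, while 18.3% of all 17397 genes tested passed the same limits (9.84% higher and 8.47% lower). At adjusted p under 0.05, 14 collagen genes rose and 10 fell, against 52.5% of all genes (26.5% higher and 26% lower). These 24 are 66.7% of the 36 collagen genes. The median log2 fold change of the 36 genes was 0.02, with members on either side, and of all genes -0.01. Col17a1 entered the test only through the Winnie-Prolapse libraries in which it was high, so its values are a description and its call is no support for a rise of collagens. DESeq2 called 15 collagen genes at the stricter limits, against 23.2% of all genes it tested, and fits of males or females alone called 0, against 1.76% and 1.45% of all genes. Values were tested across 8 and 7 mice, and p-values measure the spread between these animals.

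**Figure D2:**
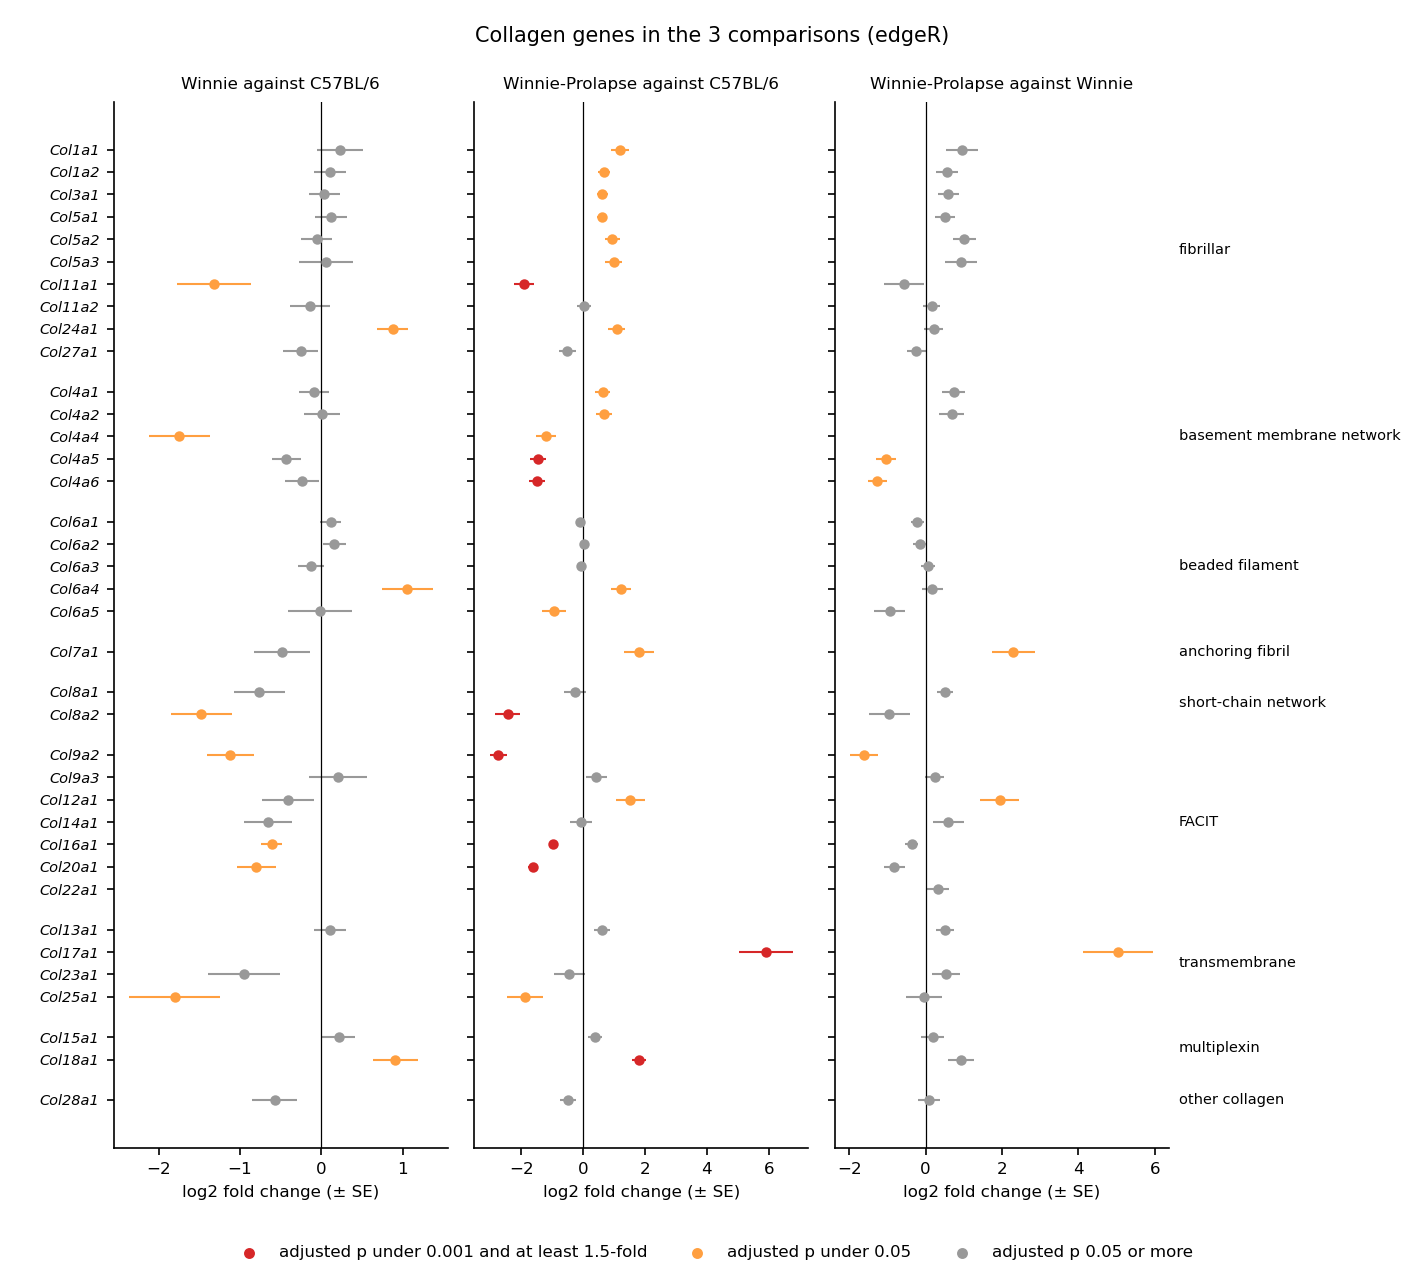
Log2 fold changes (edgeR, bars: SE) of the tested collagen genes, by class, in the 3 comparisons, with axes that differ between panels. Red marks adjusted p under 0.001 with at least 1.5-fold, orange adjusted p under 0.05 and grey the rest, and red appears only between Winnie-Prolapse and C57BL/6 mice.

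Among the fibrillar genes, 7 of 10 rose at adjusted p under 0.05 and 1, Col11a1, fell, with a median log2 fold change of 0.64, where 26.5% of all genes rose and 26% fell. Col1a1 (chr11:94936224-94953042, plus strand), the main chain of type I collagen, ranged from 100.8 to 146.5 CPM in C57BL/6 mice (median 128.3), from 67.5 to 376.6 in Winnie mice (median 94.2) and from 98.9 to 567.3 in Winnie-Prolapse mice (median 232.9). Winnie-Prolapse replicates 2, 4 and 5 were highest, replicates 1 and 3 lay at or just below the lowest control, and the groups overlapped. The log2 fold change was 1.19 (SE 0.28, adjusted p = 0.002475, edgeR).

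Col3a1, the chain of type III collagen, spanned 259.8 to 346.4 CPM in C57BL/6 mice (median 289.9), 148.4 to 544.2 in Winnie mice (median 245.5) and 218 to 633 in Winnie-Prolapse mice (median 506.3). Its lowest Winnie-Prolapse values were again those of replicates 1 and 3, both under every control. The log2 fold changes of Col3a1 and of Col1a2, the second chain of type I collagen, were 0.62 (adjusted p = 0.0112) and 0.66 (adjusted p = 0.0101) by edgeR. Col1a2 ran from 125 to 179.7 CPM in C57BL/6 mice (median 156), from 90.0 to 313.1 in Winnie mice (median 128.6) and from 119.6 to 395.9 in Winnie-Prolapse mice (median 252.7), with the same replicates at either end.

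The type V genes, whose product is built into type I fibrils and sets their width, rose too. Col5a2 had the larger change of the abundant pair, with a log2 fold change of 0.95 (adjusted p = 0.003343), and Col5a1 had 0.61 (adjusted p = 0.00701, edgeR). Col5a3 and Col24a1, a minor fibrillar chain, rose by 0.99 (adjusted p = 0.00829) and 1.08 (adjusted p = 0.00298). Col11a1, a minor fibrillar chain best known from cartilage, went the other way.

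For Col11a1, C57BL/6 mice ranged from 0.786 to 2.86 CPM (median 1.27), Winnie mice from 0.0288 to 1.12 (median 0.495) and Winnie-Prolapse mice from 0.178 to 0.679 (median 0.242). All 7 Winnie-Prolapse values were below all 8 controls. Its log2 fold change was -1.91 (SE 0.33, adjusted p = 2.25e-04, edgeR). With all 3 groups in a single fit it no longer passed the limit of 0.001.

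Genes of the basement membrane network divided by pair, with a class median of -1.21 over 5 genes tested. Col4a1, which with Col4a2 makes the common type IV network, ranged from 88.1 to 155.6 CPM in C57BL/6 mice (median 110.8), from 67.2 to 193.9 in Winnie mice (median 79.4) and from 90.5 to 380.7 in Winnie-Prolapse mice (median 154.2). Col4a2 ranged from 49.1 to 95.2, from 38.6 to 131.1 and from 56.2 to 248.8 CPM in the same groups (medians 67.0, 48.6 and 86.8). In both genes 3 Winnie-Prolapse libraries lay above all controls and the others among them. Log2 fold changes were 0.64 (adjusted p = 0.0365) and 0.68 (adjusted p = 0.0328, edgeR), and without Winnie-Prolapse replicate 4 they were 0.38 and 0.38 (adjusted p = 0.0879 and 0.0752). Of 7 endothelium list genes, 4 rose and none fell at adjusted p under 0.05, where 26.5% of all genes rose and 26% fell. The sum of this list was highest in the same replicate 4, at 194.2 CPM against 51.6 to 75.3 CPM in C57BL/6 mice. The part of the endothelium genes in the result was not tested.

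Col4a5 and Col4a6, the facing X-linked genes whose chains occur together in the basement membrane of smooth muscle, both fell. Col4a5 ranged from 5.07 to 13.8 CPM in C57BL/6 mice (median 10.9), from 5.74 to 9.99 in Winnie mice (median 7.59) and from 1.79 to 4.97 in Winnie-Prolapse mice (median 4.17). Every Winnie-Prolapse library was below every library of the other groups. The log2 fold change was -1.47 (SE 0.26, adjusted p = 3.34e-04, edgeR), and without Winnie-Prolapse replicate 2 it just missed the limit of 0.001 (adjusted p = 0.001009).

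Col4a6 ranged from 3.69 to 8.95 CPM in C57BL/6 mice (median 6.58), from 3.04 to 7.52 in Winnie mice (median 5.06) and from 1.05 to 2.98 in Winnie-Prolapse mice (median 2.28), again with no overlap between Winnie-Prolapse and either other group. Its log2 fold change was -1.50 (SE 0.26, adjusted p = 2.64e-04, edgeR). Beside these 2 genes, all 8 genes of the smooth muscle list fell at the stricter limits, with a median log2 fold change of -1.77, where 8.47% of all genes fell. The part of the smooth muscle genes in the result was not tested. Col4a4, which pairs with the untested Col4a3 in a rarer network, fell by 1.21 on the log2 scale (adjusted p = 0.00517).

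The abundant type VI chains did not pass in any comparison. Col6a1 ranged from 81.9 to 112.9 CPM in C57BL/6 mice (median 96.4), from 73.3 to 150.1 in Winnie mice (median 91.6) and from 53.8 to 118.9 in Winnie-Prolapse mice (median 88.9). Col6a2 ranged from 62.8 to 80.5, from 46.9 to 111.9 and from 45.1 to 91.3 CPM (medians 70.8, 71.0 and 69.3). The groups overlapped throughout. Log2 fold changes in Winnie-Prolapse mice were -0.10 (95% interval -0.38 to 0.17) for Col6a1 and 0.02 (-0.25 to 0.28) for Col6a2. Of the rarer type VI chains, Col6a4 rose by 1.23 (adjusted p = 0.00579) and Col6a5 fell by 0.95 on the log2 scale (adjusted p = 0.0496, edgeR), a call kept in 4 of 15 fits that left out 1 library.

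Col7a1 and Col17a1, both collagens of the junction between stratified epithelium and the tissue beneath, rose in part of the Winnie-Prolapse libraries. Col17a1 (chr19:47646344-47692094, minus strand) ranged from 0.102 to 0.629 CPM in C57BL/6 mice (median 0.274), from 0.115 to 1.79 in Winnie mice (median 0.27) and from 0.181 to 44.8 in Winnie-Prolapse mice (median 21.2). Values of 33.1, 44.8, 5.59, 24.1 and 21.2 CPM in Winnie-Prolapse replicates 2, 4, 5, 6 and 7 were above every other library, and 0.414 and 0.181 CPM in replicates 1 and 3 lay among the controls. The log2 fold change was 5.91 (SE 0.87, adjusted p = 1.04e-04, edgeR), and limma-voom did not place it past the stricter limits. The 5 high libraries were also those in which squamous epithelium genes summed to 277.5 CPM or more.

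Col7a1, the anchoring fibril collagen, ranged from 2.04 to 5.5 CPM in C57BL/6 mice (median 3.09), from 0.978 to 6.15 in Winnie mice (median 1.51) and from 2.49 to 30.9 in Winnie-Prolapse mice (median 4.9). Winnie-Prolapse replicates 2 and 4, at 30.9 and 27.0 CPM, were far above the controls, replicate 7 was just above them at 6.55 CPM, and the other 4 lay among them. Its log2 fold change was 1.81 (SE 0.47, adjusted p = 0.00509, edgeR).

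**Figure D3:**
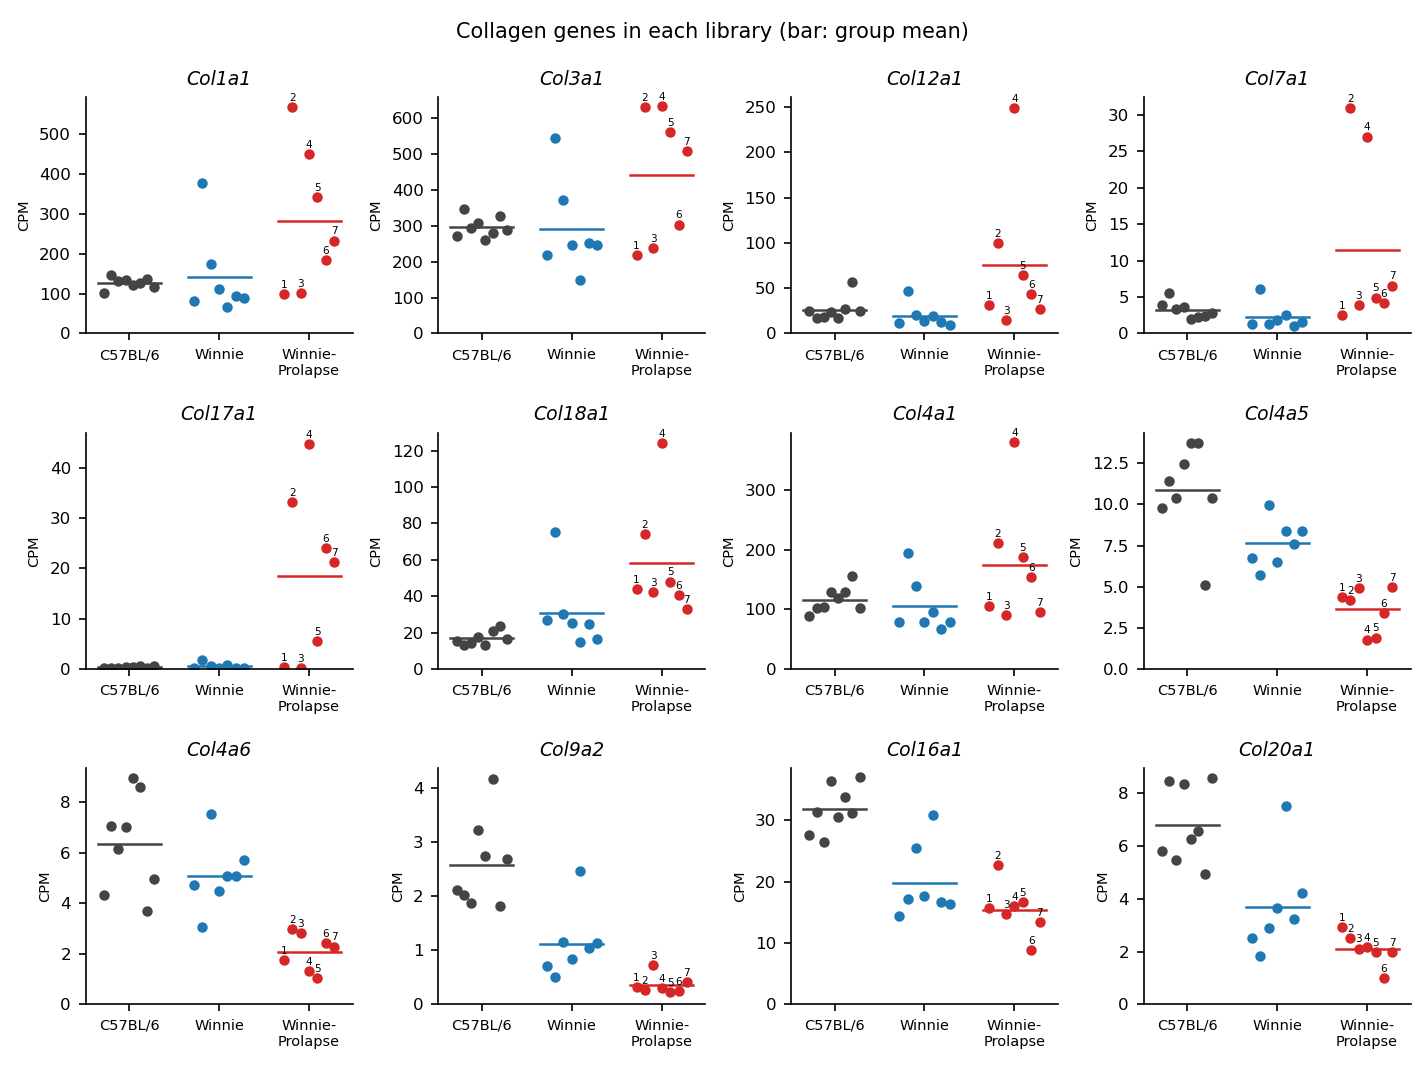
CPM of 12 collagen genes in each library (points), with the group mean (bar) and the replicate number beside Winnie-Prolapse points. Winnie-Prolapse replicates 1 and 3 lie at or near the level of the controls in Col1a1, Col12a1 and Col17a1, whereas all 7 replicates lie below all controls in Col4a5, Col4a6, Col9a2, Col16a1 and Col20a1.

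In the FACIT class 3 of 6 tested members fell at the stricter limits, as 8.47% of all genes did, and Col12a1 rose at adjusted p under 0.05. Col9a2, a chain of type IX collagen known from cartilage, ranged from 1.81 to 4.17 CPM in C57BL/6 mice (median 2.4), from 0.513 to 2.46 in Winnie mice (median 1.04) and from 0.229 to 0.726 in Winnie-Prolapse mice (median 0.297). Every Winnie-Prolapse value was below every control, and the log2 fold change was -2.74 (SE 0.29, adjusted p = 4e-06, edgeR).

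Col16a1, a FACIT of smooth muscle and fibroblasts, ranged from 26.5 to 37.0 CPM in C57BL/6 mice (median 31.2), from 14.4 to 30.8 in Winnie mice (median 17.2) and from 8.78 to 22.6 in Winnie-Prolapse mice (median 15.7). Col20a1 ranged from 4.96 to 8.58 CPM (median 6.43), from 1.83 to 7.51 (median 3.22) and from 1.01 to 2.93 (median 2.12). In both genes the controls lay above all Winnie-Prolapse libraries and the Winnie libraries lay between, overlapping each. The log2 fold changes were -0.98 (SE 0.11, adjusted p = 7.53e-06) for Col16a1 and -1.62 (SE 0.17, adjusted p = 4.43e-06) for Col20a1. In the same comparison all 8 smooth muscle list genes and 4 of 5 enteric glia list genes (median log2 fold change -1.59) fell at adjusted p under 0.05, against 26% of all genes. The part of these lists in the falls of these FACIT genes and of Col8a2 was not tested.

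Col12a1, the FACIT of tendon and other loaded connective tissue, rose by 1.52 on the log2 scale (SE 0.47, adjusted p = 0.0137, edgeR), with 248.8, 99.8 and 64.0 CPM in Winnie-Prolapse replicates 4, 2 and 5 against 16.8 to 57.1 CPM in C57BL/6 mice. Its other 4 Winnie-Prolapse values lay between 14.5 and 43.8 CPM, within or below the range of the controls, and without replicate 4 the rise was 0.89 (adjusted p = 0.0475).

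Col8a2, a short-chain network collagen, ranged from 1.81 to 5.04 CPM in C57BL/6 mice (median 4.17), from 0.352 to 2.76 in Winnie mice (median 1.43) and from 0.231 to 1.66 in Winnie-Prolapse mice (median 0.55). All Winnie-Prolapse libraries were below all controls in CPM, and the log2 fold change was -2.43 (SE 0.40, adjusted p = 2e-04, edgeR). Of the transmembrane collagens, the brain-enriched Col25a1 fell by 1.87 on the log2 scale (adjusted p = 0.0135), and without C57BL/6 replicate 7, which held 6.99 CPM against a control median of 1.29, it fell by 1.12 (adjusted p = 0.029).

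Col18a1 (chr10:77052178-77166548, minus strand), whose chain holds endostatin at its end, was the only collagen gene with all Winnie-Prolapse libraries above all controls. It ranged from 13.3 to 23.7 CPM in C57BL/6 mice (median 16.02), from 14.5 to 75.2 in Winnie mice (median 25.4) and from 32.8 to 124.3 in Winnie-Prolapse mice (median 43.9). The log2 fold change was 1.82 (SE 0.22, adjusted p = 1.43e-05, edgeR). Genes that overlap Col18a1 on the other strand include Slc19a1, and the strand setting of the counting is not given in the sources used here.

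Without overlap in CPM, 1 collagen gene was higher (Col18a1) and 7 lower in Winnie-Prolapse than in C57BL/6 mice, against 16% of all genes (6.5% higher and 9.45% lower). On the TMM scale (trimmed mean of M-values) 5 collagen genes were lower in every library, against 7.58% of all genes, and Col4a5 and Col8a2 overlapped with the controls.

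Since Winnie-Prolapse replicates 2, 4, 5, 6 and 7 held squamous epithelium genes, the comparison was repeated with replicates 1 and 3 alone against the 8 controls, a choice made after seeing the data. The fibrillar rise was not seen in these 2 libraries: log2 fold changes were -0.16 for Col1a1, -0.17 for Col1a2, -0.21 for Col3a1 and -0.08 for Col5a2. Those of Col4a1, Col4a2, Col12a1, Col7a1 and Col17a1 were -0.08, -0.01, -0.06, 0.16 and 0.07, and none of these 9 genes passed adjusted p under 0.05. Of the 10 genes that fell with all libraries, 7 still passed adjusted p under 0.05 as lower, at -2.57 for Col11a1 (adjusted p = 0.00787), -2.09 for Col9a2 (adjusted p = 0.00818), -1.29 for Col4a6 (adjusted p = 0.0342) and -1.05 for Col4a5 (adjusted p = 0.039). Col16a1 had -0.90 (adjusted p = 0.00117), Col20a1 -1.27 (adjusted p = 0.00602) and Col8a2 -1.35 (adjusted p = 0.0472, edgeR). Col4a4 at -0.75, Col6a5 at -0.24 and Col25a1 at -1.52 no longer passed. The 10 genes were picked from a fit that held the same controls and the same 2 libraries, so that passing here is no separate support.

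Col18a1 kept a log2 fold change of 1.51 in replicates 1 and 3 (adjusted p = 4.12e-04) and was the only 1 of 39 collagen genes tested there to pass the stricter limits, against 2.55% of 18356 genes. At adjusted p under 0.05, 11 passed (3 higher and 8 lower), against 19.1% of all genes. Col22a1, a FACIT, and Col6a6, a type VI chain, were among the 11. Both were too low for a test in this comparison with all libraries. Col22a1 passed the filter here only because replicates 1 and 3 were high (27 and 16 counts, against 2 to 9 in C57BL/6 mice). Col6a6 passed it only through the controls (3 to 24 counts, against 1 in each of replicates 1 and 3). Neither is therefore support for a direction, and the third gene that rose, beside Col18a1 and Col22a1, was Col6a4. With only replicates 2, 4 and 5, which held skeletal muscle genes, left out, 6 of 36 collagen genes passed the stricter limits and 10 passed adjusted p under 0.05, against 9.25% and 40.1% of all genes. In that fit Col17a1 stayed at 5.41 (adjusted p = 9.575e-04), Col18a1 was at 1.44 (adjusted p = 2.875e-05) and Col1a1 at 0.49 (adjusted p = 0.07).

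**Figure D4:**
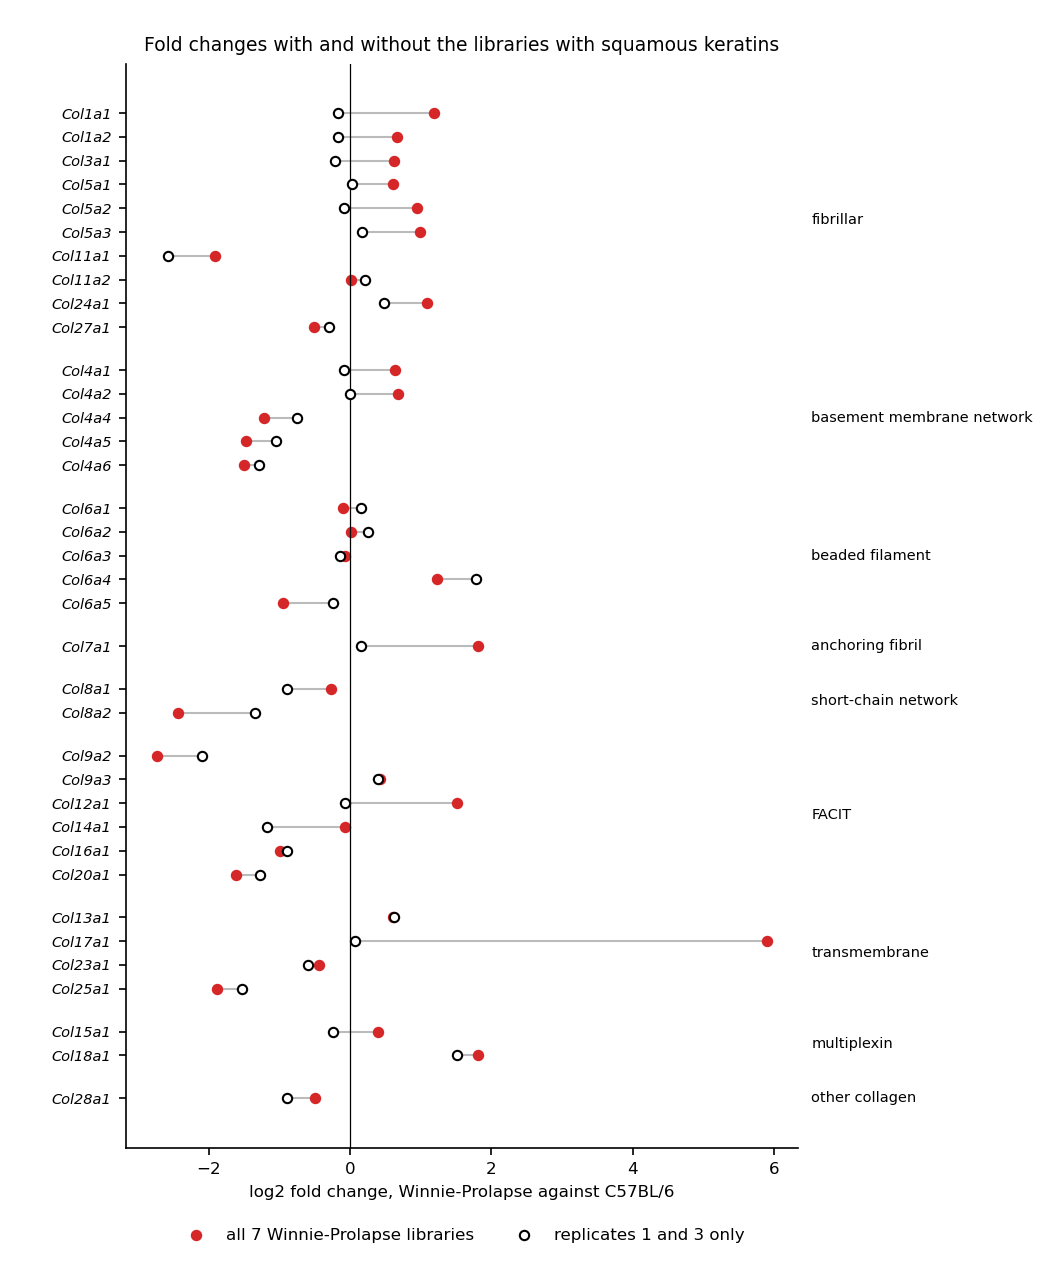
Log2 fold changes of collagen genes between Winnie-Prolapse and C57BL/6 mice with all 7 Winnie-Prolapse libraries (red) and with replicates 1 and 3 only (open circles). Col1a1, Col12a1, Col7a1 and Col17a1 move to near 0, and Col18a1, Col9a2, Col16a1 and Col20a1 keep their direction.

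Fibroblast genes, the list for the main source of fibrillar collagen, summed to 480.9 ± 89.6 CPM in C57BL/6 mice, to 313.2 ± 104.4 CPM in Winnie mice and to 490.8 ± 208.8 CPM in Winnie-Prolapse mice. Of the 8 genes of the list 2 rose and 2 fell at adjusted p under 0.05 in Winnie-Prolapse mice, near the 26.5% and 26% of all genes. Sums were highest in replicates 4, 2 and 5, which were also highest in Col12a1. Most of each sum was Dcn, at 597.3 of 825, 421.6 of 638.1 and 345.5 of 595 CPM. Other members differed: in replicate 4, Lum was at 19.1 CPM against 37.1 to 65.9 in C57BL/6 mice, and Pdgfra at 79.6 against 27.0 to 44.05. The part of squamous epithelium, skeletal muscle and fibroblast genes in the fibrillar result was not tested beyond these fits.

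**Figure D5:**
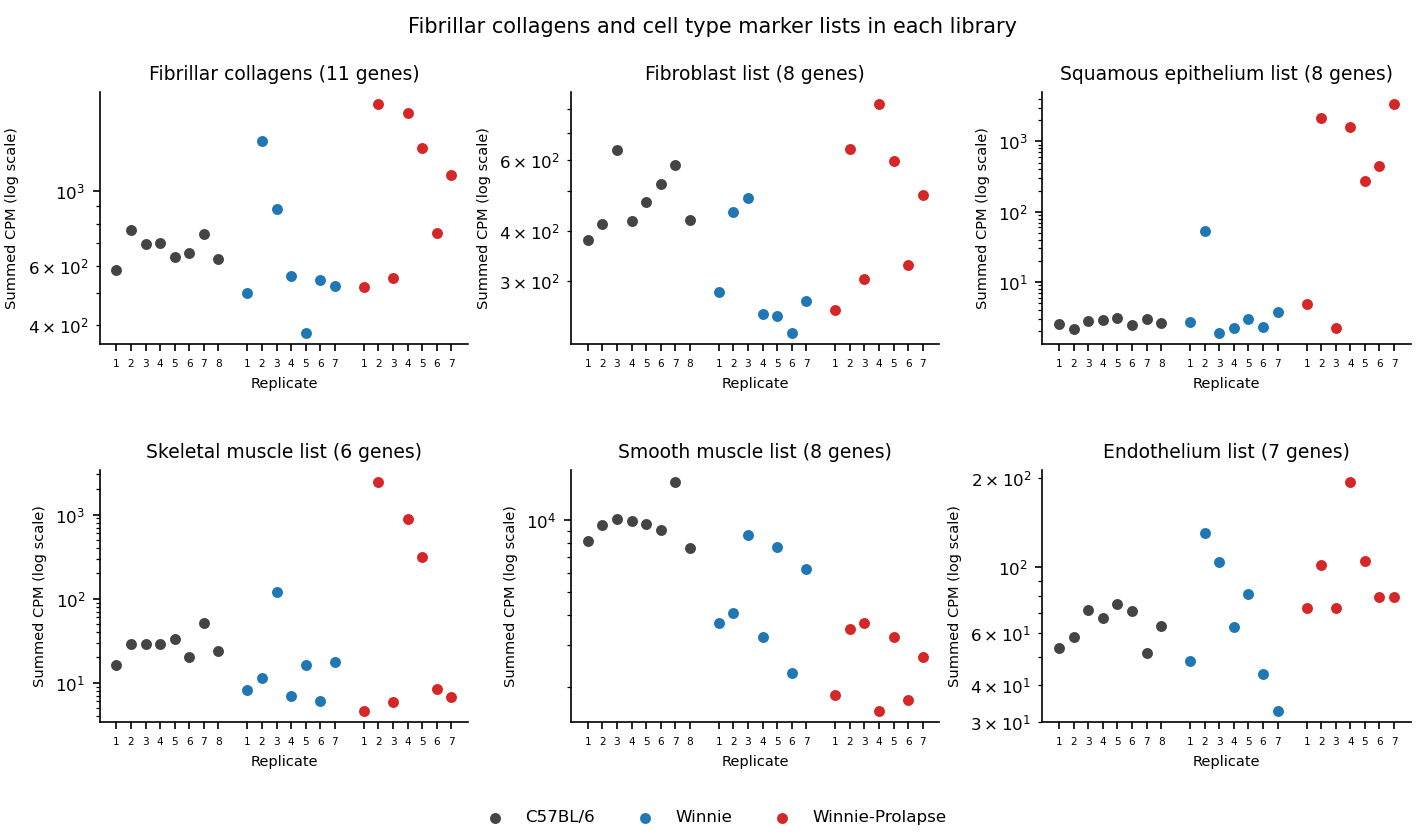
Summed CPM (log axes) of the fibrillar collagens and of 5 cell type marker lists in each library, by replicate number. Winnie-Prolapse replicates 1 and 3 are low in both fibrillar collagens and squamous epithelium genes, and smooth muscle genes are lower in all 7 Winnie-Prolapse libraries than in any control.

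The second comparison, of Winnie with C57BL/6 mice of the same age, addressed colitis without prolapse. It shares its controls with the first. No collagen gene passed the stricter limits, which 0.0925% of 17289 genes did, and DESeq2 called 4, against 6.43% of all genes it tested. By edgeR, 14 of 35 collagen genes had an unadjusted p under 0.05, against 39.9% of all genes. At adjusted p under 0.05, Col6a4, Col18a1 and Col24a1 rose and Col4a4, Col8a2, Col9a2, Col11a1, Col16a1, Col20a1 and Col25a1 fell, 10 of 35 genes against 25.7% of all genes (13.8% higher and 11.9% lower). The abundant chains Col1a1, Col1a2, Col3a1, Col4a1, Col4a2, Col6a1 and Col6a2 had log2 fold changes between -0.09 and 0.23, with adjusted p = 0.573 for Col1a1 and 0.905 for Col3a1, and the median over the 35 genes was -0.12 against -0.01 for all genes.

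Col24a1, the minor fibrillar chain, was higher in all 7 Winnie mice than in any C57BL/6 mouse, at 0.964 to 1.38 against 0.326 to 0.889 CPM, and no other collagen gene separated the groups in CPM, as 1.64% of all genes did (0.463% higher). Its log2 fold change was 0.88 (SE 0.19, adjusted p = 0.00641). Col18a1 rose by 0.91 (SE 0.27, adjusted p = 0.0249), with replicate 2 the highest Winnie library (without it 0.54, adjusted p = 0.0534), and Col6a4 by 1.06 (SE 0.31, adjusted p = 0.0224).

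Among the genes that fell in Winnie mice, Col16a1 stood at -0.61 on the log2 scale (SE 0.13, adjusted p = 0.00668), Col9a2 at -1.12 (SE 0.29, adjusted p = 0.0134), Col20a1 at -0.80 (adjusted p = 0.0275) and Col8a2 at -1.48 (adjusted p = 0.0134). Each had 6 of 7 Winnie libraries below all controls. Col4a4 was at -1.75 (adjusted p = 0.00598), Col11a1 at -1.32 (adjusted p = 0.0449) and Col25a1 at -1.80 (adjusted p = 0.0307), all from mean levels below 2 CPM in C57BL/6 mice. Of fits that left out 1 library, 3 of 15 kept the call of Col11a1 and 10 of 15 that of Col25a1, which was at -1.08 without C57BL/6 replicate 7. Col4a5 had -0.43 (adjusted p = 0.0853) and Col7a1 -0.49 (adjusted p = 0.31).

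Winnie replicate 2 (Col1a1 376.6 CPM, squamous epithelium list 52.5 CPM) and C57BL/6 replicate 7 (the lowest Col4a5 and the highest smooth muscle sum, 14410 CPM) stood apart. Without both, 11 collagen genes passed adjusted p under 0.05 (3 higher and 8 lower), against 19.8% of all genes, and none passed the stricter limits. Col18a1 was then at 0.63 (adjusted p = 0.0223), Col4a5 at -0.46 (adjusted p = 0.0161) and Col7a1 at -1.01 (adjusted p = 0.0165), and Col11a1 and Col25a1 no longer passed. Beside the lower genes, all 8 smooth muscle, all 5 enteric glia, 4 of 6 pericyte and 3 of 8 fibroblast list genes fell at adjusted p under 0.05, against 11.9% of all genes. At the same limit 3 of 6 leukocyte list genes rose, against 13.8% of all genes. The part of these lists was not tested. Without Winnie replicate 3, the library with skeletal muscle genes and the second highest Winnie library in summed collagen (1607 CPM), 11 collagen genes passed (3 higher and 8 lower), against 24.2% of all genes.

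The third comparison set Winnie-Prolapse against Winnie mice. By edgeR no collagen gene passed the stricter limits and neither did any other gene (0% of 17041), and DESeq2 called 3 collagen genes, against 3.55% of all genes it tested. At adjusted p under 0.05, 3 rose and 3 fell of 36, against 8.74% of all genes (5.01% higher and 3.73% lower), and 17 had an unadjusted p under 0.05, against 27.8% of all genes. Leaving out 1 library gave counts from 3 (without Winnie replicate 3, 4, 5 or 6) to 12 (without Winnie replicate 2), while the share of all genes went from 2.78% to 14.6% in the same fits. Col17a1, which entered this test too only through the Winnie-Prolapse libraries in which it was high, had 5.04 and its call is no support. Col7a1 rose by 2.30 (SE 0.57, adjusted p = 0.03095) and Col12a1 by 1.94 (adjusted p = 0.0382), while Col4a6 fell by 1.26 (adjusted p = 0.0182), Col9a2 by 1.61 (adjusted p = 0.0224) and Col4a5 by 1.04 on the log2 scale (adjusted p = 0.0269).

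Col4a5 and Col4a6 were the 2 collagen genes with no overlap between these groups in CPM, which 0.962% of all genes showed (0.552% lower). On the TMM scale only Col4a5 of the pair did not overlap, against 0.628% of all genes lower. Col18a1, with 0.92 (adjusted p = 0.0995), and Col1a1, with 0.96 (95% interval 0.05 to 1.88, adjusted p = 0.153), did not pass. With replicates 1 and 3 as the only Winnie-Prolapse libraries, or with replicates 2, 4 and 5 left out, no collagen gene passed adjusted p under 0.05 by edgeR, and at most 0.0974% of all genes did.

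Ratios of 2 chains within a library do not depend on its total, and 6 ratios were tested in the 3 comparisons (two-sided exact permutation test, adjusted over 18 tests). Col1a1 rose more than its partners. The log2 ratio of Col1a1 to Col1a2, the chains of type I collagen, went from -0.29 ± 0.10 (SD, n = 8) in C57BL/6 to 0.11 ± 0.34 in Winnie-Prolapse mice (n = 7), a difference of 0.40 (exact permutation test, adjusted p = 0.0336), with 5 of 7 libraries above all controls, and adjusted p = 0.0521 without C57BL/6 replicate 3 or 5. The log2 ratio of Col3a1 to Col1a1 fell from 1.23 ± 0.10 to 0.80 ± 0.39, a difference of -0.44 (exact permutation test, adjusted p = 0.0261), with 4 of 7 libraries below all controls.

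The multiplexin ratio moved furthest. The log2 ratio of Col18a1 to Col15a1 was 0.08 ± 0.50 in the controls, 0.70 ± 0.39 in Winnie mice and 1.54 ± 0.47 in Winnie-Prolapse mice, with 6 of 7 Winnie-Prolapse libraries above all controls (exact permutation test, adjusted p = 0.00839) and 6 of 7 above all Winnie libraries (adjusted p = 0.021, exact). Col5a2 to Col3a1 rose by 0.28 against C57BL/6 and by 0.36 against Winnie mice (exact permutation test, adjusted p = 0.04645 for both), calls that were lost in 12 of 15 and in 10 of 14 tests that left out 1 library. Col6a1 to Col6a2 fell by 0.12 (exact permutation test, adjusted p = 0.04645), a call lost in 9 of 15 tests that left out 1 library.

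Col4a1 to Col4a2, the pair that shares a promoter region, had a log2 ratio of 0.77 ± 0.07 in C57BL/6 and 0.73 ± 0.08 in Winnie-Prolapse mice, a difference of -0.04 (exact permutation test, adjusted p = 0.463), although both genes varied several-fold between Winnie-Prolapse libraries. No ratio passed between Winnie and C57BL/6 mice, where the nearest was Col18a1 to Col15a1 at 0.62 (exact permutation test, adjusted p = 0.0521), which passed without C57BL/6 replicate 7, Winnie replicate 3 or Winnie replicate 5. Between Winnie-Prolapse and Winnie mice, Col1a1 to Col1a2 passed only without Winnie replicate 2 or Winnie-Prolapse replicate 1 or 3, and Col3a1 to Col1a1 only without Winnie replicate 2. In Winnie-Prolapse replicates 1 and 3, the difference in Col1a1 to Col1a2 from C57BL/6 mice was 8.88e-04.

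Sex was tested over all 22 libraries with group in the model. None of 38 collagen genes tested differed between males and females at adjusted p under 0.05 by edgeR, while 0.0793% of 18911 genes did, and 3 had an unadjusted p under 0.05, against 4.62% of all genes. In the test of whether the difference between Winnie and C57BL/6 mice depended on sex, no collagen gene passed (lowest adjusted p = 0.2725, 7 at unadjusted p under 0.05, against 13.1% of all genes), and the same held for Winnie-Prolapse against C57BL/6 mice (lowest adjusted p = 0.955, 5 at unadjusted p under 0.05, against 5% of all genes). Of all genes, 0% passed either test.

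Genes that make, trim, crosslink, bind or accompany collagen were read from 6 lists of 86 genes. In Winnie-Prolapse against C57BL/6 mice, 13 rose and 6 fell of 85 tested at the stricter limits, and 27 rose and 19 fell at adjusted p under 0.05, close to the 18.3% and 52.5% of all genes. In the list for hydroxylation and folding of chains, 2 of 20 rose at the stricter limits, near the 9.84% of all genes that did. P4hb, a subunit of prolyl 4-hydroxylase and a protein disulfide isomerase, rose by 0.95 (adjusted p = 4.14e-06), and the lysyl hydroxylase Plod3 by 0.71 (adjusted p = 3.35e-04). Ppib, a prolyl isomerase, rose by 0.24 (adjusted p = 0.031), and Creb3l1, a transcription factor of collagen secretion, had 0.23 (adjusted p = 0.209).

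Of the genes for trimming and crosslinking of procollagen, 3 of 12 tested rose at the stricter limits and none fell, against 9.84% of all genes higher and 8.47% lower. Lox, the enzyme that starts crosslinks between collagen chains, went from 4.74 ± 1.14 CPM in C57BL/6 to 30.6 ± 22.5 in Winnie-Prolapse mice, with no overlap (8.62 or more against 7.27 or less), and its log2 fold change was 2.72 (SE 0.34, adjusted p = 2.24e-05). The procollagen proteases Adamts14 and Adamts3 rose by 1.88 (adjusted p = 6.19e-05) and 1.87 (adjusted p = 6.02e-05), and Loxl2 by 0.78 (adjusted p = 0.0205). Pcolce, which enhances trimming, and Loxl1 had 0.18 and 0.20 and did not pass. With Winnie-Prolapse replicates 1 and 3 alone none of Lox, Adamts14 and Adamts3 passed the stricter limits, which 2.55% of all genes passed there against 18.3% with all libraries. Their log2 fold changes were then 1.08 for Lox, 1.46 for Adamts14 and 1.82 for Adamts3. Beside the list, 4 of 4 squamous epithelium, 3 of 4 skeletal muscle and 5 of 6 leukocyte list genes tested rose at adjusted p under 0.05, against 26.5% of all genes. Squamous genes such as Krt5, Krt13 and Krt6b, at most 0.63 CPM in C57BL/6 mice, could be tested only through libraries in which they were high. The squamous count is therefore no support, and the part of these lists was not tested.

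Collagen receptors moved in both directions, 2 higher and 1 lower of 11 at the stricter limits, where 9.84% of all genes were higher and 8.47% lower. At adjusted p under 0.05, 4 passed each way, against 26.5% of all genes higher and 26% lower. Itga2, a collagen-binding integrin chain, rose by 2.68 (adjusted p = 2.57e-04) and the leukocyte receptor Lair1 by 1.54 (adjusted p = 9.78e-05), while Itga10 fell by 0.85 on the log2 scale (adjusted p = 9.15e-04, a call lost in 14 of 15 fits that left out 1 library). The receptor kinase Ddr2 fell by 0.71 (adjusted p = 0.00144), Ddr1 fell by 0.31 (adjusted p = 0.0285), and Itgb1 had 0.21 (adjusted p = 0.184). Beside these, 5 of 6 leukocyte list genes rose at adjusted p under 0.05, and their part was not tested.

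Of the proteins that coat collagen fibrils, 4 of 15 rose and 5 fell at adjusted p under 0.05, against 26.5% and 26% of all genes. Those past the stricter limits, 3 of 15, all fell, where 8.47% of all genes fell and 9.84% rose. Ogn fell by 1.32 (adjusted p = 8.83e-05), Postn by 1.11 (adjusted p = 8.12e-06) and Prelp by 0.87 on the log2 scale (adjusted p = 3.14e-04). Dcn and Sparc, the most abundant per length with Ogn, had 0.19 and 0.24 and did not pass, and with Winnie-Prolapse replicates 1 and 3 alone they had -0.62 (adjusted p = 0.0812) and -0.61 (adjusted p = 0.0278), so that Sparc passed as lower there. In Winnie mice 7 of the 15 fell and none rose at adjusted p under 0.05, where 11.9% of all genes fell and 13.8% rose. At the same limit 3 of 8 fibroblast, 4 of 6 pericyte and all 8 smooth muscle list genes fell there and none rose. Dcn and Lum belong to the fibroblast list too, and the part of these lists was not tested.

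Of laminins and other basement membrane proteins, the partners of type IV collagen, 4 rose and 2 fell of 15 at the stricter limits, against 9.84% and 8.47% of all genes. At adjusted p under 0.05, 6 rose and 3 fell, against 26.5% and 26% of all genes. Lama1 rose by 2.28 (adjusted p = 1.36e-05), Lama3 by 1.15 (adjusted p = 8.92e-04) and Lamb3 by 0.72 (adjusted p = 4.49e-05), and Lama3 and Lamb3 are among the most abundant of the list per length. All 4 tested genes of the squamous epithelium list rose in the same comparison. Krt5, Krt13 and Krt6b of that list, at most 0.63 CPM in C57BL/6 mice, could enter it only through libraries in which they were high. That count is a description and no support. With Winnie-Prolapse replicates 1 and 3 alone none of these 3 laminin genes passed the stricter limits, which 2.55% of all genes passed there against 18.3% with all libraries. Their log2 fold changes were then 1.91 for Lama1, 0.74 for Lamb3 and 0.29 for Lama3, and the part of squamous epithelium was not tested. Lamc3 fell by 1.76 on the log2 scale (adjusted p = 6.54e-04). The calls of Lama3 and Lamc3 were lost in 11 and 9 of 15 fits that left out 1 library.

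In the TGF-beta list, the pathway best known to drive collagen synthesis in fibroblasts, 2 of 12 rose at the stricter limits and none fell. At adjusted p under 0.05, 3 rose and 4 fell. In all, 16.7% and 58.3% of the list passed, near the 18.3% and 52.5% of all genes. In the same comparison 5 of 6 leukocyte list genes rose at adjusted p under 0.05, against 26.5% of all genes, and their part was not tested. Ltbp2, a binding protein of the matrix, rose by 2.76 (adjusted p = 9.56e-05), and the ligand Tgfb1 rose by 1.46 (adjusted p = 1.45e-04), from 11.7 ± 3.28 to 30.9 ± 17.0 CPM. Smad7, an inhibitor of the pathway, fell by 0.45 (adjusted p = 0.0306), and Tgfbr2 and Smad3 had 0.31 and 0.22 and did not pass.

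In Winnie against C57BL/6 mice no gene of the 6 lists passed the stricter limits by edgeR (DESeq2 called 5, against 6.43% of all genes it tested), and 7 rose and 21 fell of 85 at adjusted p under 0.05, or 32.9% against 25.7% of all genes (13.8% higher and 11.9% lower). Between Winnie-Prolapse and Winnie mice, 13 of 84 were higher and 2 lower in Winnie-Prolapse at the same limit, or 17.9% against 8.74% of all genes (5.01% higher and 3.73% lower). Leaving out 1 library moved this count of 15 to between 2 (without Winnie replicate 4) and 26 (without Winnie replicate 2), where 2.78% and 14.6% of all genes passed. The count was 0 in males, without the 5 squamous libraries and without the 3 skeletal muscle libraries, where at most 0.0974% of all genes passed. With Winnie-Prolapse replicates 1 and 3 alone against C57BL/6 mice, 3 genes of the lists passed the stricter limits (19 with all libraries) and 24 passed adjusted p under 0.05 (12 in each direction), against 2.55% and 19.1% of all genes.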

How the data were processed

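RNA-seq was run on distal colon of 22 mice. Per the labels and the study's methods, the authors made stranded polyA libraries, ran the RNAsik pipeline on GRCm38, with alignment by STAR, and deposited 1 table of raw counts per gene from featureCounts. Versions of STAR and featureCounts, the annotation release and the strand setting of the counting are not given in the sources used here, so reads of genes on opposite strands, which 18 of the 44 collagen genes overlap, cannot be told apart. The labels name no batch.

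The number of Winnie mice in the study's text differs from the labels, and all 7 labelled libraries were used. Groups came from the labels, and each count column was matched to its sample by title. Genes were filtered with filterByExpr, scaled by TMM and tested by edgeR 4.0.16 (R 4.3.3) quasi-likelihood F tests on the 2 groups compared, with Benjamini-Hochberg adjustment over all genes tested. The stricter limits, adjusted p under 0.001 and at least 1.5-fold, are those of the study. DESeq2 1.42.0, limma-voom (limma 3.58.1), other filters and scalings, sex as a covariate, single sexes, 1 fit of all groups and leaving out each library were alternatives, and fits without libraries that stood apart were added after seeing the data. The code was tested on simulated data.

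CPM is the count per library total, scaled so that 1 CPM stands for 24.8 to 36.3 counts, which sets the counting precision of low genes. Exon lengths and positions are from the GENCODE annotation of GRCm38. Ratios used counts plus 0.5 on a log2 scale. Classes and lists of partner and marker genes were set by hand, and members and lists were chosen with earlier results of these data known. Lowest, median and highest values are given for 10 collagens chosen by role and for those past the stricter limits at 1 CPM or more. Partner genes named are up to 3 per list by level per kb and up to 3 by size of change. Of these lists, 1 gene is not reported here.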

Additional observations from a re-analysis of the deposited data

Results flagged for a closer look

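In groups of 7 or 8 libraries, 14 values stood further from the rest than Dixon's 95% limit allows, of 69 gene or ratio groups tested. Chance gives about 1 in 20 only for independent, normally distributed values. CPM of genes that vary together and ratios that share genes need not be either, so no conclusion is drawn from the number. Col9a1, looked at after its values were seen, is not counted among the 14. Winnie replicate 2 was the highest Winnie library in Col1a1 (376.6 CPM), Col7a1 (6.152 CPM), Col17a1 (1.794 CPM) and Col18a1 (75.23 CPM). In the same library the log2 ratio of Col3a1 to Col1a1 was the lowest of its group (0.531) and that of Col1a1 to Col1a2 the highest (0.2667), and squamous epithelium genes summed to 52.5 CPM against at most 3.75 in the other Winnie libraries.

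Winnie-Prolapse replicate 4 was the highest of its group in both chains of the common type IV network, with 380.7 CPM of Col4a1 and 248.8 CPM of Col4a2. Winnie-Prolapse replicate 3 was the highest in Col9a2 (0.7262 CPM) and in the log2 ratio of Col18a1 to Col15a1 (2.502). Winnie-Prolapse replicate 6 held 5.48 CPM (136 counts) of Col9a1, a type IX chain, and it is the library in which milk protein genes took 18.02% of the counts.

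Winnie replicate 5 was the highest Winnie library in Col9a2 (2.461 CPM) and Col20a1 (7.514 CPM). Among C57BL/6 libraries, replicate 7 was the highest in Col11a1 (2.862 CPM) and the lowest in Col4a5 (5.071 CPM), and it had the highest pericyte (1107 CPM) and smooth muscle (14410 CPM) sums. The causes of these values were not tested.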

How the results depend on the processing

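No paired analysis was possible because the replicate numbers were given in accession order and pair no samples. The alternatives cover the named collagen genes and those at adjusted p under 0.05, 64 results in all, the collagen and partner counts, and the ratios. Of these 64, 8 with a main adjusted p under 0.05 reversed, all in fits without the 5 squamous libraries. Causes of the changes were not tested. A percentage beside a count here is the share of all genes that passed in the same fit. Counts of collagen genes past the stricter limits by DESeq2 were 4 in Winnie against C57BL/6 (6.43%), 15 with prolapse against the controls (23.2%) and 3 with prolapse against Winnie (3.55%). In Winnie-Prolapse against C57BL/6 they were 5 with at least 10 counts in every library (17.2%), 0 in males (1.76%), 0 in females (1.45%) and 1 without the squamous libraries (2.55%). At adjusted p under 0.05 they were 6 (at least 10 counts, 24.6%) and 0 (females, 0.00579%) for Winnie against C57BL/6. For Winnie-Prolapse against C57BL/6 they were 13 (males, 27.9%), 15 (females, 32.1%), 11 (squamous libraries out, 19.1%) and 10 (skeletal muscle libraries out, 40.1%). Against Winnie they were 3 (limma-voom, 6.4%), 0 (males, 0%), 18 (females, 16.3%), 0 (squamous libraries out, 0.00554%) and 0 (skeletal muscle libraries out, 0.0974%). Leaving out single libraries gave 0 to 2, 8 to 11 and 0 collagen genes past the stricter limits and 7 to 11, 22 to 25 and 3 to 12 at adjusted p under 0.05 in the 3 comparisons. The 2 calls came without Winnie replicate 5, where 3.89% of all genes passed. At adjusted p under 0.05, 16% to 35.3%, 47.3% to 55.7% and 2.78% to 14.6% of all genes passed in these fits.

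Partner genes past the stricter limits in Winnie against C57BL/6 numbered 5 (DESeq2, 6.43% of all genes), 1 (no filter, 0.232%) and 1 (all groups in 1 fit, 1.12%). In Winnie-Prolapse against C57BL/6 they numbered 2 (males, 1.76%), 1 (females, 1.45%), 3 (squamous libraries out, 2.55%) and 10 (skeletal muscle libraries out, 9.25%). Against Winnie they numbered 5 (DESeq2, 3.55%) and 1 (females, 0.311%). At adjusted p under 0.05 they were 0 (females, 0.00579%) in the first comparison, and 28 (males, 27.9%) and 24 (squamous libraries out, 19.1%) in the second. In the third they were 25 (DESeq2, 17.4%), 23 (all groups in 1 fit, 13.8%), 0 (males, 0%), 32 (females, 16.3%), 0 (squamous libraries out, 0.00554%) and 0 (skeletal muscle libraries out, 0.0974%). Single libraries left out gave 0 to 4 past the stricter limits in the first and 2 to 26 at adjusted p under 0.05 in the third. The share of all genes went from 0% to 3.89% and from 2.78% to 14.6% in the same fits. Itga10, Lama3 and Lamc3 missed the stricter limits in 14, 11 and 9 of these 15 fits.

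In Winnie against C57BL/6, log2 fold changes that changed sign were, without TMM, Col3a1 -0.0331 and Col4a2 -0.04973; by limma-voom, -0.05352 and -0.08447; with at least 10 counts, -0.01168 and -0.03901; with sex as a covariate, Col4a2 -0.0282. In males Col4a1 had 0.3896, and in females Col1a1 had -0.3375, Col1a2 -0.2382, Col3a1 -0.2464, Col4a2 -0.5691, Col6a1 -0.08083 and Col6a2 -0.06081. Without Winnie replicate 2 and C57BL/6 replicate 7, Col1a1 had -0.1782, Col1a2 -0.118, Col3a1 -0.1373 and Col4a2 -0.1425. In Winnie-Prolapse against C57BL/6, Col6a2 had -0.04897 without TMM, -0.005432 by limma-voom, -0.00213 with sex as a covariate and -0.1719 in females, and Col6a1 0.02461 in males. Without the squamous libraries Col1a1 had -0.1648, Col1a2 -0.1653, Col3a1 -0.206, Col5a2 -0.08405, Col4a1 -0.0807, Col4a2 -0.005381, Col6a1 0.1585 and Col12a1 -0.0635, and Pcolce -0.05694, Loxl1 -0.4914, Itgb1 -0.0297, Sparc -0.6147 and Dcn -0.6242. Without the skeletal muscle libraries Loxl1 had -0.1598, Sparc -0.1626 and Dcn -0.31. Against Winnie, Col8a2 had 0.2466 and Col20a1 0.0304 in males, and without the squamous libraries Col1a1 had -0.4206, Col1a2 -0.3005, Col3a1 -0.2704, Col4a1 -0.0178, Col4a2 -0.0362, Col6a1 0.0125, Col6a2 0.0617, Col8a2 0.0977 and Col17a1 -0.8161.

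Over single libraries left out, Winnie against C57BL/6 gave -0.1988 to 0.3505 for Col1a1, -0.1155 to 0.212 for Col1a2, -0.1643 to 0.1522 for Col3a1 and -0.2329 to 0.08966 for Col4a2, and Winnie-Prolapse against C57BL/6 gave -0.08668 to 0.08366 for Col6a2 and -0.01192 to 0.2883 for Dcn. The ratio differences ranged, for Col18a1 to Col15a1, from 0.531 to 0.7599 (Winnie against C57BL/6); for Col1a1 to Col1a2, from -0.1026 to 0.04269, 0.3358 to 0.4747 and 0.3435 to 0.5067 in the 3 comparisons; for Col3a1 to Col1a1, from -0.1113 to 0.04401 and, against Winnie, -0.4791 to -0.2654; for Col4a1 to Col4a2 against Winnie, from -0.008123 to 0.05015; for Col5a2 to Col3a1, from 0.2137 to 0.3331 and 0.2898 to 0.4218; and for Col6a1 to Col6a2, from -0.1435 to -0.097. In Winnie-Prolapse replicates 1 and 3 alone, Col1a1 to Col1a2 differed by 8.878e-04 from C57BL/6 and by 0.008596 from Winnie. The differences of Col5a2 to Col3a1 and of Col6a1 to Col6a2 against C57BL/6 missed adjusted p under 0.05 in 12 and 9 of 15 such tests, and that of Col5a2 to Col3a1 against Winnie in 10 of 14. With 24.8 to 36.3 counts to 1 CPM, genes under 1 CPM are limited by depth.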
